A study of Mus musculus with 6 samples.

Results

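The genes described here are 10 subunits and feedback inhibitors of the transcription factor NF-kB: Nfkb1, Nfkb2, Rela, Relb, Nfkbia, Nfkbie, Nfkbiz, Tnfaip3, Tnip1 and Birc3. They were taken by name and matched by Ensembl identifier, and all 10 were found among the 41388 genes of the count tables. Isolated neutrophils from C57BL/6 bone marrow carried DIBAC4(3), a dye that reports membrane potential, at 250 nM and received 100 nM ionomycin, an ionophore that lets calcium into the cytosol. Lots of 20000 cells were sorted between 2 and 4 minutes later according to their response, into RNA lysis buffer, and low-input SMARTer libraries were sequenced. There were 3 libraries of depolarized and 3 of polarized cells, which form 3 replicate pairs by the code in their titles (A, B and C below, in the order of that code). Both populations were therefore stimulated, dye-loaded and sorted in the same minutes, and no unstimulated library was analysed here. The comparison set the cells that depolarized against those that stayed polarized. The sources used here state neither the age, sex and number of the mice nor how the neutrophils were isolated.

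NF-kB is a family of dimers of Rel-homology proteins. In a resting cell the dimers are held in the cytoplasm by inhibitors of the IkB family. Signals from Toll-like, interleukin-1 and tumour necrosis factor receptors activate the IkB kinase (IKK) complex, which marks the inhibitor for degradation, so that dimers enter the nucleus. The first targets to be transcribed include the inhibitor genes themselves, and the new protein ends the response. In neutrophils the pathway supports cytokine production and survival. Degradation of an inhibitor protein takes minutes and leaves no direct trace in mRNA, whereas a new transcript has to be made, processed and accumulated.

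The 10 genes were expressed in every library of depolarized and polarized cells, with fitted log2 fold changes, depolarized minus polarized, between -0.35 (Nfkbie) and 0.35 (Birc3). In bulk RNA fewer cells that express a gene and less RNA per cell cannot be told apart. All 10 passed the low-count filter, which kept 9971 genes. At an adjusted p under 0.05 over those genes, in edgeR's quasi-likelihood test blocked by pair, 0 of the 10 were called, where 0.321% of all tested genes were. Depolarized cells were called higher in 0 of 10 (0.0802% of tested genes) and lower in 0 of 10 (0.241% of tested genes), so the counts are near the background. At an unadjusted p under 0.05 the count was also 0 of 10, against 6.58% of all genes. The inhibitor gene Nfkbia and the subunit gene Rela were the most abundant of the 10, and Birc3, with depolarized cells higher in all 3 pairs, had the lowest p of the 10.

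Promoter sequence is shown first, because regulation of inhibitor genes by NF-kB itself is what makes them feedback genes. RefSeq start sites on GRCm38.p6 were available in the table used for 7 of the 10 genes, in 10 entries, and not for Nfkb1, Relb and Nfkbiz. The 250 bases before each start were searched on both strands for the 10-base kappaB consensus, and positions on either strand or overlapping each other were all counted. Of the 7 genes, 5 held at least 1 match (Nfkb2, Nfkbia, Nfkbie, Tnfaip3 and Tnip1), and Rela and Birc3 held 0. By entry, 7 of 10 held at least 1 match, against 7.25% of all 32851 promoter entries. Among these 7 entries, 3 belong to Nfkb2, and its entries 2 and 3 overlap each other. The only match of Nfkb2 entry 3 lies in bases listed as exon. The 10 entries are therefore not independent promoters. The genes were also chosen as NF-kB subunits and feedback inhibitors, so these shares do not compare an unselected set with all entries. The windows of the 10 entries ran from 43.6% to 72.0% G and C, against a median of 52.4% over all entries, and the part of base composition in these shares was not tested. The stretches below are given 5′ to 3′ on the gene's own strand, with consensus matches in capitals and without bases that the files list as exon. They belong to the most abundant inhibitor gene (Nfkbia), the inhibitor gene that was lower in depolarized cells in all 3 pairs (Nfkbie), Tnip1 and Birc3, in which all depolarized libraries lay above all polarized ones in CPM (in Tnip1 also after scaling for library composition), and a scarce subunit gene (Nfkb2, the first of its 3 entries).
Nfkbia: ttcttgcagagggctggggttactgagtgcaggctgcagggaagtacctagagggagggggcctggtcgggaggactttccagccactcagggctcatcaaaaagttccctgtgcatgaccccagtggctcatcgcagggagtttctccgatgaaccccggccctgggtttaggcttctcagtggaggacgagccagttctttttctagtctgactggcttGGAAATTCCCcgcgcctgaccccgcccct
Nfkbie: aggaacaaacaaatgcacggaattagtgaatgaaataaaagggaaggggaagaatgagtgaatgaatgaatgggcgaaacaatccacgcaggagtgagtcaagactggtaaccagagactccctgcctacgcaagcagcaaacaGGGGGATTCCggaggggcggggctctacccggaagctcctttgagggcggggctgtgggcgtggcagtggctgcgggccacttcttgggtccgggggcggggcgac
Tnip1: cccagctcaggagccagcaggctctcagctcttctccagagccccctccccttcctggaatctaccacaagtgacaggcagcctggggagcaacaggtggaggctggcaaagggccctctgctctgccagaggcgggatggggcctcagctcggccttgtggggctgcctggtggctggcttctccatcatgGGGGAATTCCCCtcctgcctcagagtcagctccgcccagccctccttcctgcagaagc
Birc3: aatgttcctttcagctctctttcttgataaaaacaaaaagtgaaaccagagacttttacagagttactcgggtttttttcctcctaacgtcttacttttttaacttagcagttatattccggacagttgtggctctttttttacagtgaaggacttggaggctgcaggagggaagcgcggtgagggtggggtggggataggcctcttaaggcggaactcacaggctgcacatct
Nfkb2: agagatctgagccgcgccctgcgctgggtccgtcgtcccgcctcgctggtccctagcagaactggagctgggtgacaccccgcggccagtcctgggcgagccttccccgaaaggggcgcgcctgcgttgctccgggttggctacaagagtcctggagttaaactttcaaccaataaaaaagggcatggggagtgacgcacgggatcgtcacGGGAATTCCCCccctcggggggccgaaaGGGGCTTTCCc
All coordinates are on GRCm38.p6. The Nfkbia stretch is chr12:55492648-55492897 on the minus strand, and its match begins 29 bases before the start. The Nfkbie stretch is chr17:45555450-45555699 on the plus strand, with a match that begins 106 bases before the start. The Tnip1 stretch is chr11:54962941-54963190 on the minus strand, and its 3 overlapping matches form 1 run that begins 58 bases before the start. The Birc3 stretch is chr9:7873187-7873420 on the minus strand, 234 bases with no match. The Nfkb2 stretch is chr19:46304487-46304736 on the plus strand, with overlapping matches that begin 39 and 38 bases, and another that begins 11 bases, before the start. Such matches describe the letters of these windows only.

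Levels were compared between genes per length, as RPKM (CPM divided by the listed gene length in kilobases, CPM being counts scaled to a common library total). Nfkbia, which encodes the classical inhibitor IkB alpha, was at 64.9 RPKM on average over the 6 libraries, with a range of 51.0 to 87.5 RPKM. Rela, which encodes the main transactivating subunit, was at 49.4 RPKM, between 44.1 and 57.9 RPKM. These were first and second of the 10 in every library, and Nfkbia stood at percentile 93.8 and Rela at percentile 92.3 of the tested genes in mean RPKM. Nfkbiz (15.5 RPKM), Tnip1 (12.2 RPKM) and Birc3 (12.04 RPKM) followed, and their order among themselves changed between libraries. Nfkb1 at 8.51 RPKM and Nfkbie at 4.73 RPKM held the sixth and the seventh place in every library. Relb (1.32 RPKM), Nfkb2 (1.17 RPKM) and Tnfaip3 (1.15 RPKM) were the scarcest, and their ranges, from 0.558 RPKM in Nfkb2 to 1.96 RPKM in Relb, overlapped. In CPM, which is not corrected for length, Rela came before Nfkbia.

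**Figure D1:**
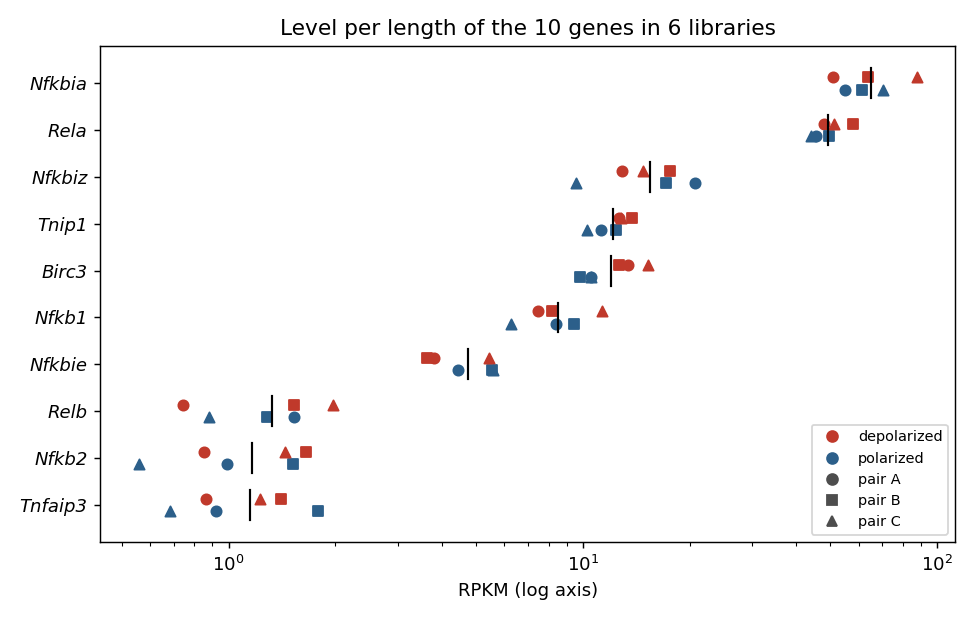
RPKM (log axis) of each gene in the 3 depolarized (red, upper row of each gene) and 3 polarized (blue, lower row) libraries, with pairs A, B and C as circles, squares and triangles and a black bar at the mean of all 6. Nfkbia and Rela lie above 44 RPKM in every library and Relb, Nfkb2 and Tnfaip3 below 2 RPKM.

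Among the 5 Rel-homology genes, the 4 subunit genes listed here plus Rel, Rela made up most of the mRNA in both populations. Its share of their summed RPKM was 76.1% ± 4.09 (SD, n = 3) in depolarized cells and 76.4% ± 3.22 (SD, n = 3) in polarized cells. Nfkb1 took 13.05% ± 2.46 in depolarized and 13.1% ± 1.54 in polarized cells. Rel took 6.92% ± 0.952 in depolarized and 6.81% ± 1.14 in polarized cells. Nfkb2 and Relb, the subunit genes of the alternative pathway, lay between 1.013% and 2.74% each in all libraries. Among the genes of the 3 classical cytoplasmic inhibitors, Nfkbia held 89.5% ± 1.10 of the summed RPKM in depolarized and 88.8% ± 0.890 in polarized cells. Nfkbie held 5.77% ± 0.736 in depolarized cells, against 7.39% ± 0.465 in polarized cells, with no overlap between the libraries of both populations. Its share was at most 6.56% in depolarized and at least 7.08% in polarized cells. Nfkbib, the third gene of this sum, went the other way, with 4.74% ± 0.663 in depolarized and 3.80% ± 0.616 in polarized cells. Shares of 1 sum depend on each other, and in CPM the populations overlapped in Nfkbie. An exact permutation test on 3 against 3 libraries cannot go below p = 0.10 (two-sided), and the Nfkbie share was singled out after its values were seen. The summed inhibitor RPKM divided by the summed subunit RPKM was 1.09 ± 0.228 in depolarized and 1.16 ± 0.227 in polarized cells, and it was highest in both libraries of pair C.

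The subunit genes were considered next, in CPM, each in pairs A, B and C in that order. Rela (chr19:5637483-5648130 on the plus strand of GRCm38) was at 129.97, 157 and 139 CPM in the depolarized libraries, against 124, 135 and 120 CPM in the polarized ones. Every depolarized library lay above its polarized partner in CPM, though the populations overlapped, and after scaling by TMM factors (a correction for library composition) pair C was at -0.01 on the log2 scale. The fitted log2 fold change, depolarized minus polarized, was 0.10 ± 0.17 (SE), with a 95% interval of -0.26 to 0.46 (edgeR adjusted p 1). Nfkb1, which encodes a precursor of a DNA-binding subunit (chr3:135584655-135691547, minus strand), was at 35.6, 39.1 and 54.1 CPM in depolarized and 40.2, 45.1 and 29.9 CPM in polarized libraries. Depolarized cells were lower in pairs A and B and higher in pair C, so the direction differed between pairs. The fitted log2 fold change of Nfkb1 was 0.09 ± 0.20 (SE, edgeR adjusted p 1), and it was -0.18 without pair C.

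Relb and Nfkb2 form the dimer of the alternative pathway, in which the kinase encoded by Map3k14 triggers processing of the Nfkb2 product. Relb (chr7:19606217-19629438, minus strand) was at 2.89, 5.94 and 7.63 CPM in depolarized libraries and at 5.95, 4.99 and 3.42 CPM in polarized ones. The lowest Relb value belonged to the depolarized library of pair A and the highest to that of pair C, and the populations overlapped throughout. Its log2 fold change was 0.07 ± 0.34 (SE, edgeR adjusted p 1), and it was -0.37 without pair C and 0.57 without pair A. Nfkb2 (chr19:46304737-46312090, plus strand) was at 2.80, 5.42 and 4.73 CPM in depolarized and 3.26, 4.99 and 1.84 CPM in polarized libraries. The lowest value was that of the polarized library of pair C. The log2 fold change of Nfkb2 was 0.34 ± 0.33 (SE, edgeR adjusted p 1), and -0.03 without pair C. Between 36 and 104 counts per library stand behind Nfkb2 and between 59 and 129 behind Relb. The 95% interval of the log2 fold change ran from -0.37 to 1.04 in Nfkb2 and from -0.65 to 0.79 in Relb, the widest of the 10.

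Nfkbia (chr12:55489411-55492647, minus strand) is the textbook early target of NF-kB. It was at 80.4, 101 and 138 CPM in the depolarized and at 86.7, 96.9 and 111 CPM in the polarized libraries. In both populations the value was lowest in pair A and highest in pair C, and the populations overlapped. The mean levels were 106 ± 29.2 CPM in depolarized and 98.3 ± 12.3 CPM in polarized cells (SD, n = 3 each). Its log2 fold change was 0.02 ± 0.17 (SE, edgeR adjusted p 1), and the 95% interval of the ratio ran from 0.790 to 1.30. The TMM-scaled log2 difference was -0.05 in pair A, 0.02 in pair B and 0.09 in pair C. Leaving out pair C gave a fitted value of -0.01.

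Nfkbie (chr17:45555716-45563169, plus strand) encodes IkB epsilon, another cytoplasmic inhibitor. It was at 9.17, 8.81 and 13.2 CPM in depolarized and 10.8, 13.4 and 13.5 CPM in polarized libraries. Depolarized cells were lower in every pair, by least in CPM in pair C, and the highest depolarized library lay above the lowest polarized one. It had the lowest fitted value of the 10, a log2 fold change of -0.35 ± 0.22 (SE) with a 95% interval of -0.83 to 0.12, and its edgeR p was 0.134 unadjusted and 0.942 adjusted. Leaving out pair B, in which the TMM-scaled log2 difference was -0.64, gave -0.21. Nfkbiz (chr16:55811375-55838899, minus strand) encodes the nuclear protein IkB zeta, which acts as a coactivator of secondary response genes. It was at 64.7, 88.2 and 74.1 CPM in depolarized and 104, 86.3 and 48.0 CPM in polarized libraries, so that pair A and pair C went in opposite directions. Its log2 fold change was -0.08 ± 0.20 (SE, edgeR adjusted p 1), and it was 0.20 without pair A and -0.32 without pair C.

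The remaining genes act on the ubiquitin chains that carry the signal. Tnfaip3 (chr10:19000910-19015657, minus strand) encodes a ubiquitin-editing enzyme that switches off receptor complexes, and Tnip1 (chr11:54910785-54962917, minus strand) a ubiquitin-binding partner of it. Tnfaip3 was at 6.23, 10.2 and 8.87 CPM in depolarized and 6.68, 12.9 and 4.95 CPM in polarized libraries. Both libraries of pair B were the highest of their population, and the populations overlapped. The log2 fold change of Tnfaip3 was 0.05 ± 0.26 (SE, edgeR adjusted p 1). Leaving out pair C gave -0.22, and leaving out pair B gave 0.29. Tnip1 was at 44.7, 48.6 and 45.4 CPM in depolarized and 39.8, 43.9 and 36.3 CPM in polarized libraries. All depolarized libraries lay above all polarized ones in CPM, by a narrow margin. The log2 fold change of Tnip1 was 0.15 ± 0.18 (SE) with a 95% interval of -0.23 to 0.52 (edgeR adjusted p 1).

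Birc3 (chr9:7848699-7873186, minus strand) encodes a cellular inhibitor of apoptosis, a ubiquitin ligase of tumour necrosis factor receptor complexes that is both a regulator and a target of NF-kB. It was at 67.3, 63.3 and 76.6 CPM in depolarized libraries and at 52.9, 49.0 and 52.8 CPM in polarized ones. In CPM all 3 depolarized libraries lay above all 3 polarized ones, with means of 69.1 ± 6.84 CPM in depolarized and 51.6 ± 2.21 CPM in polarized cells (SD, n = 3 each). After TMM scaling the populations overlapped, since the depolarized library of pair B lay below the polarized library of pair C. The TMM-scaled log2 difference was 0.41 in pair A, 0.33 in pair B and 0.31 in pair C. The fitted log2 fold change was 0.35 ± 0.17 (SE), with a 95% interval of -0.02 to 0.72. The edgeR p was 0.0602 unadjusted and 0.787 adjusted, so Birc3 did not pass the test. Without pair C it was called, at a log2 fold change of 0.37 and an edgeR adjusted p of 0.0350, in a fit with 1 residual degree of freedom that called 4.95% of all tested genes higher and 5.13% lower. A call of 1 in 10 there is near that background. Over the 18 alternative settings the adjusted p of Birc3 ran from 0.0350 to 1. Birc3 and Tnip1 were the 2 of 10 genes whose populations did not overlap in CPM with depolarized cells higher, against 7.28% of all tested genes, and 0 of 10 had depolarized cells lower without overlap, against 3.14%. After TMM scaling, chosen after seeing the data, the count was 1 of 10 higher (Tnip1), against 4.59% of tested genes, and 0 of 10 lower, against 4.54%. In either direction the populations were apart in CPM in 10.4% of tested genes. In CPM, Rela, Tnip1 and Birc3 were higher in all 3 pairs (18.3% of tested genes) and Nfkbie lower in all 3 (8.91%), together 4 of 10 against 27.2% of tested genes. On the TMM scale Birc3 and Tnip1 were higher in all 3 pairs, against 12.9% of tested genes, and Nfkbie lower in all 3, against 12.1%.

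**Figure D2:**
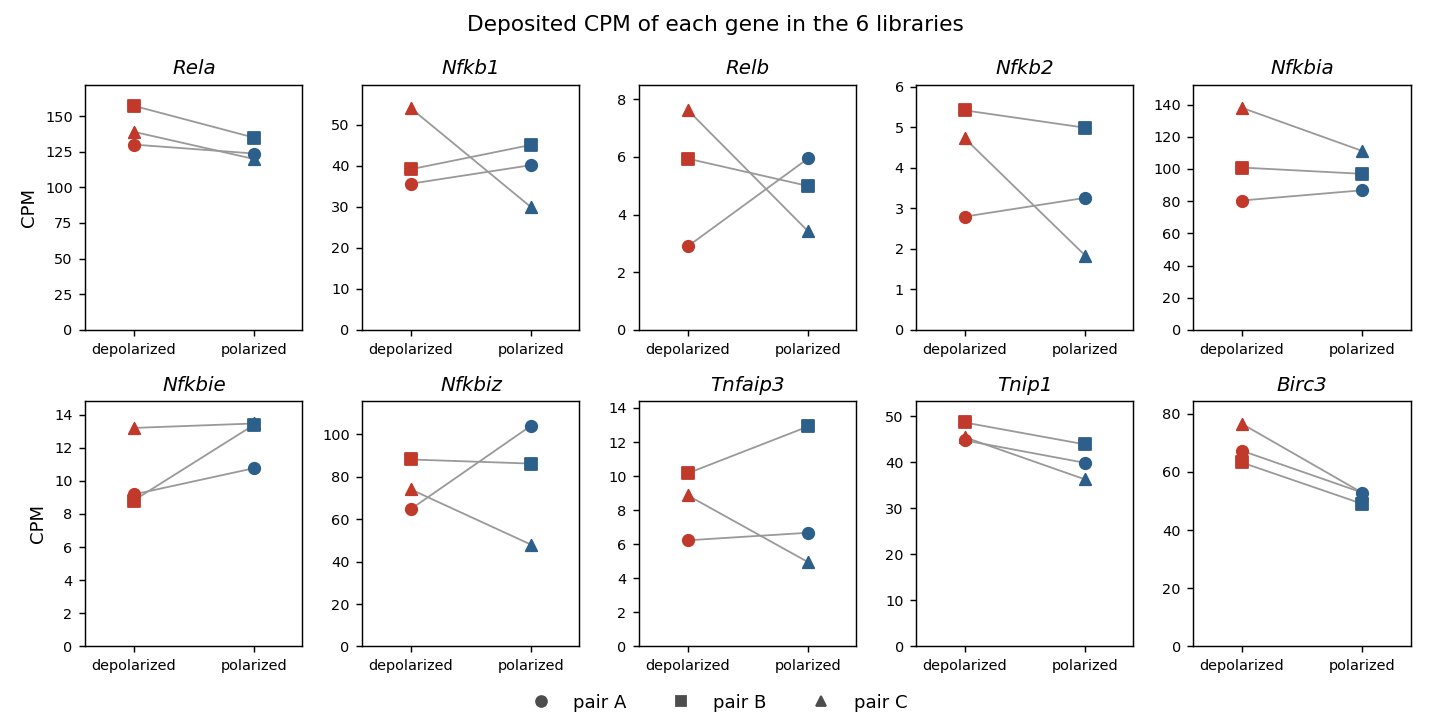
Deposited CPM of each gene in the depolarized (left, red) and polarized (right, blue) library of pairs A (circle), B (square) and C (triangle), joined by a line within a pair; each vertical axis starts at 0. Birc3 and Tnip1 have all 3 depolarized libraries above the polarized ones in CPM, whereas the lines of different pairs slope in opposite directions in Nfkb1, Relb and Nfkbiz.

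The pairs differed from each other in direction. After TMM scaling, depolarized cells were higher in 3 of 10 genes in pair A, 6 of 10 in pair B and 8 of 10 in pair C, with medians of -0.08, 0.05 and 0.35 on the log2 scale. Over all tested genes the median in these pairs was -0.01, -0.00 and 0.01. In CPM, without TMM scaling, the polarized library of pair C was the lowest of the 6 libraries in 6 of the 10 genes, and in 36.1% of all tested genes. On the TMM scale it was lowest in Nfkb1, Nfkb2, Nfkbiz and Tnfaip3. Its TMM factor was 0.876, the lowest of the 6. Mpo, a marker of early neutrophil precursors, was at 146 CPM there, against 13.4 and 19.8 CPM in the polarized libraries of pairs A and B. In depolarized libraries Mpo was also highest in pair C, at 5.86 CPM, against 0.294 CPM in pair A and 0.208 CPM in pair B. Pair C stood apart in other genes of the lists too. Usp18 was at 167 CPM in its depolarized and 177 CPM in its polarized library, against 39.4 to 59.0 CPM elsewhere. Cxcl10 was at 9.05 and 4.33 CPM there, against at most 1.09 CPM elsewhere. The part of precursor cells, or of other differences between pairs, in the values of pair C was not tested. The median TMM-scaled difference of immediate early genes was 0.00 in pair A, 0.10 in pair B and 0.70 in pair C. It was also highest in pair C in the other Rel and IkB genes (0.54), the adaptors (0.17), the other negative regulators (0.17) and the target genes (0.36), but not in the IKK complex and upstream kinases (-0.06 in pair C, 0.25 in pair B). Fits without pair C put 3 of the 10 genes above 0 and 7 below, against 8 above and 2 below with all pairs. Nfkb1, Nfkb2, Relb, Nfkbia and Tnfaip3 turned from above 0 to below it, Nfkbia only to -0.01. Nfkbiz was below 0 in both, at -0.08 with all pairs and -0.32 without pair C.

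**Figure D3:**
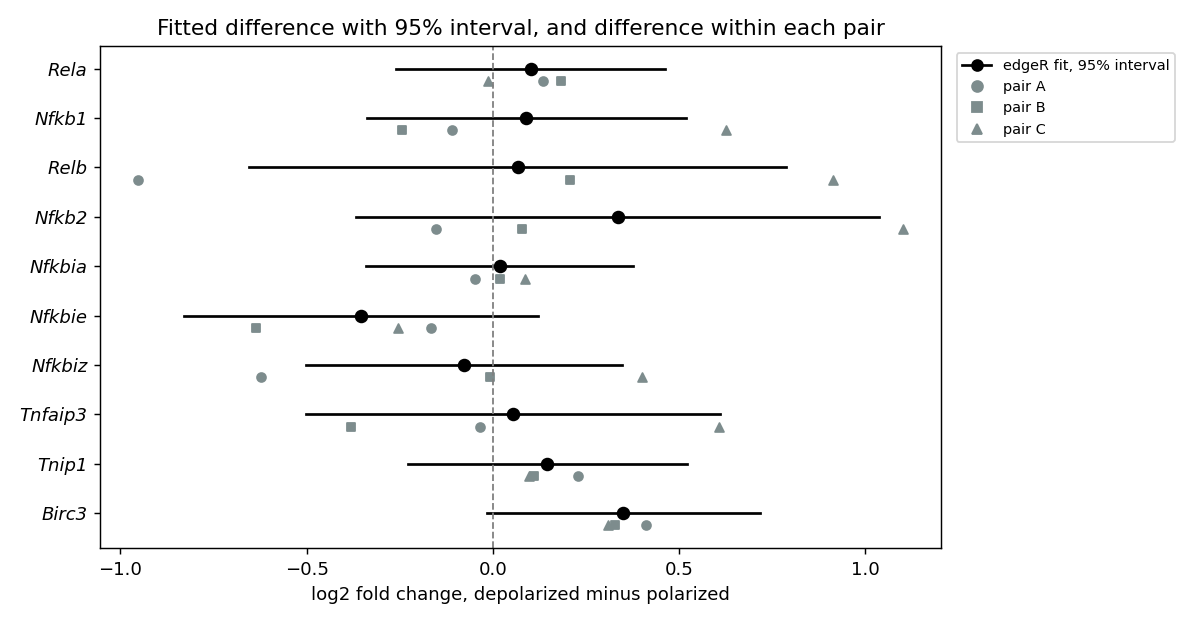
Fitted log2 fold change, depolarized minus polarized, with its 95% interval (black), and the TMM-scaled difference within pairs A, B and C (grey symbols below each interval) for each gene. All 10 intervals include 0. The 3 pairs lie close together in Nfkbia, Tnip1 and Birc3 and far apart in Relb, Nfkb2 and Nfkbiz.

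The genes around these 10 in the pathway gave 0 calls as well. Of 5 other Rel and IkB family genes, 5 were tested, 0 were called in either direction and 5 were fitted above 0, with a median log2 fold change of 0.21 against -0.00 over all tested genes. Nfkbib, which encodes IkB beta, was at 7.55 ± 0.962 CPM in depolarized and 5.72 ± 0.379 CPM in polarized cells (SD, n = 3 each), with a log2 fold change of 0.33 (edgeR adjusted p 1). Nfkbid (0.21), Rel (0.13), Bcl3 (0.10) and Nfkbil1 (0.29) had adjusted p of 1 in the same fit, on the log2 fold change scale. In the list of the IKK complex and upstream kinases 0 of 11 tested genes were called, and the median log2 fold change was 0.03. Ikbkg, the regulatory IKK subunit gene, was at 72.9 ± 3.58 CPM in depolarized and 62.6 ± 5.53 CPM in polarized cells. The catalytic subunit genes Ikbkb and Chuk had log2 fold changes of 0.03 and 0.08, the alternative pathway kinase gene Map3k14 of 0.17, Tbk1 of 0.19 and Tab3 of -0.50 (unadjusted p 0.0820, edgeR adjusted p 0.867).

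Of 26 receptor-proximal adaptors and ubiquitin ligases, 24 were tested and 0 were called, with a median log2 fold change of -0.03. Myd88, the adaptor of Toll-like and interleukin-1 receptors, was at 261 ± 31.3 CPM in depolarized and 202 ± 17.3 CPM in polarized cells (SD, n = 3 each). Its log2 fold change was 0.29 ± 0.17 (SE, edgeR adjusted p 0.911), and without pair C, where 10.1% of all genes were called, it was at 0.34 (edgeR adjusted p 0.0266). Rnf31 and Sharpin, subunits of the linear ubiquitin ligase, had log2 fold changes of 0.17 and 0.15. Among 17 other negative regulators 15 were tested, 0 were called, and the median was 0.06. Tnip2, which encodes another ubiquitin-binding inhibitor, had a log2 fold change of 0.42 (edgeR adjusted p 0.932, and 0.0490 without pair C, where it was 0.68). The ubiquitin ligase gene Itch had 0.31, the deubiquitinase genes Otud7b and Cyld 0.34 and 0.11, and Zfp36, which encodes an mRNA-destabilizing protein, 0.06, on the log2 fold change scale.

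Of the textbook target genes of NF-kB, 0 of 18 tested were called, and 13 of 18 were fitted above 0. At an unadjusted p under 0.05, 6 of 18 were higher and 0 lower, against 3.26% and 3.32% of all tested genes, and the list was written with earlier results of these data known. The median log2 fold change was 0.09. Csf1, the macrophage growth factor gene, had the lowest p, with 23.7 ± 13.3 CPM in depolarized and 10.99 ± 1.37 CPM in polarized cells (SD, n = 3 each), with a log2 fold change of 0.89 (edgeR adjusted p 0.247). A fit that leaves out pair A called it (log2 fold change 1.21, edgeR adjusted p 0.0248), and one that leaves out pair C gave 0.49. It was also called with no low-count filter (edgeR adjusted p 0.0246). Il1b (log2 fold change 0.58, edgeR adjusted p 0.317) and the chemokine gene Ccl4 (0.49, edgeR adjusted p 0.482) were called without pair C, at adjusted p of 7.47e-06 and 0.000360. That fit called 10.1% of all tested genes. Without pair A the edgeR adjusted p was 0.738 for Il1b and 0.947 for Ccl4, and without pair B neither was called. Il1b is also in the list of mature neutrophil markers described below. Tnf and Cxcl2, early cytokine and chemokine targets, had log2 fold changes of 0.09 and 0.05 with adjusted p of 1. Of the 25 target genes listed, 7 were too low to be tested, among them Il6 and Il12b with 0 counts in every library.

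Immediate early genes, whose transcripts can appear within minutes, gave 0 calls among 18 tested, with a median log2 fold change of 0.14. At an unadjusted p under 0.05, 4 of 18 were higher and 0 lower, against 3.26% and 3.32% of all tested genes, and this list too was written with earlier results known. Atf3 had the lowest p, at 22.5 ± 2.87 CPM in depolarized and 12.1 ± 1.99 CPM in polarized cells (SD, n = 3 each), with a log2 fold change of 0.83 (edgeR adjusted p 0.133). Atf3 was called without the low-count filter (edgeR adjusted p 0.0438) and without pair C (0.79, edgeR adjusted p 0.000589), where 10.1% of all tested genes were called. Leaving out pair A gave an edgeR adjusted p of 0.343, and leaving out pair B gave no call of Atf3 either. Egr1 (0.72) and Nr4a1 (0.55) had adjusted p of 0.447 and 0.522, with 0.41 and 0.28 on the log2 fold change scale without pair C. Fos was at 1975 ± 242 CPM in depolarized and 1700 ± 107 CPM in polarized cells, and its log2 fold change of 0.14, like that of Junb (0.28), had an edgeR adjusted p of 1.

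**Figure D4:**
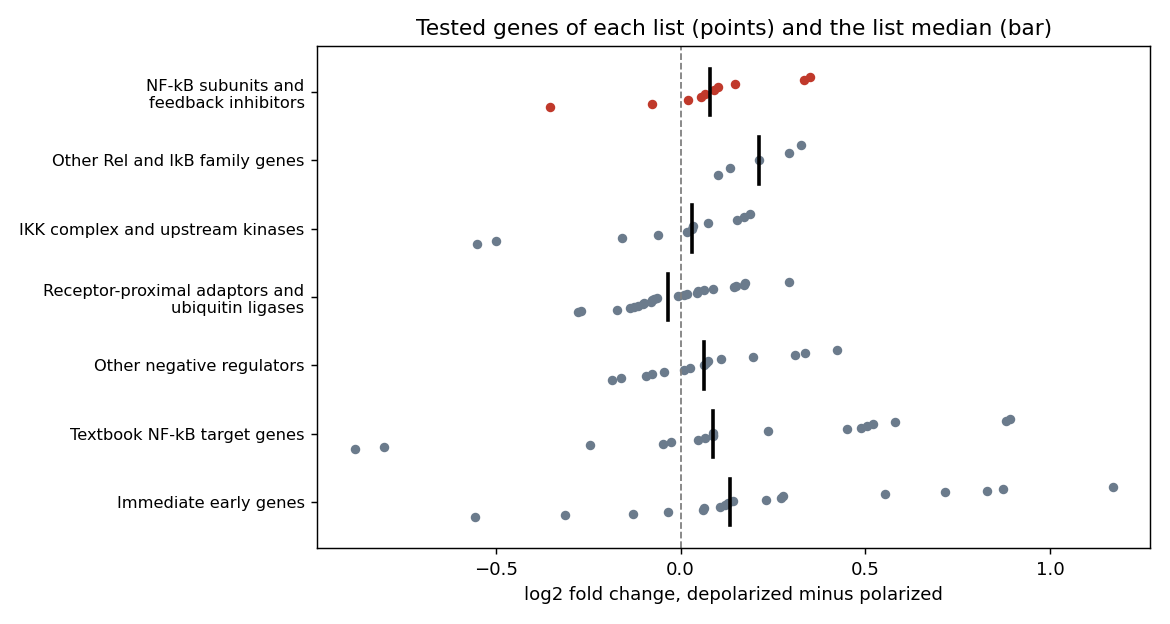
Log2 fold change, depolarized minus polarized, of every tested gene (points) of the 10 NF-kB subunits and feedback inhibitors (red) and of 6 neighbouring lists (grey), with the median of each list as a black bar. The medians lie between -0.03 and 0.21, and the points farthest to the right belong to target and immediate early genes.

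Profiles over the 6 libraries were compared by the root mean square difference of centred log2 CPM, among 5171 genes with a mean log2 CPM of at least 3. Nearest to Nfkbia were Alkbh4 (0.0441), Tnfrsf1a (0.0871), which encodes a tumour necrosis factor receptor, and Card9 (0.0963), an adaptor gene, against a median of 0.348 over all candidates. Nearest to the mean profile of the 10 genes were Apobr (0.0254), Snx3 (0.0296) and Sel1l (0.0427), against a median of 0.268. The 6 log2 fold changes of these genes lay between -0.01 and 0.15, each with an edgeR adjusted p of 1. The libraries share pairs, and the list is a description.

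Library totals ran from 16904969 to 20381489 counts. Neutrophil markers summed to between 171207 and 194363 CPM in depolarized and 199240 and 246678 CPM in polarized libraries, with 2 of 12 called lower, against 0.241% of all tested genes. S100a8, S100a9 and Retnlg, none of them called, made up most of these sums. The 2 called were Camp (log2 fold change -1.46) and Ltf (-1.38). Csf3r (0.48) and Cxcr2 (0.11) were the only neutrophil markers fitted above 0, and neither was called. Early precursor markers summed to 162 to 225 CPM in depolarized and 252 to 539 CPM in polarized libraries, and 6 of 10 tested were called lower, against 0.241% of all tested genes. The marker lists too were chosen with earlier results of these data known, so their counts are a description. Cd63, which was not called (log2 fold change -0.23), made up most of the depolarized sums, at 128 to 202 CPM. The log2 fold changes of the 6 called ran from -5.66 (Elane) to -3.55 (Prtn3), with Mpo at -5.30. Markers of mature neutrophils summed to 20163 to 20972 CPM in depolarized and 15892 to 19007 CPM in polarized libraries, with 0 of 9 called. Monocyte markers summed to 817 to 903 CPM in depolarized and 896 to 1176 CPM in polarized libraries, and apart from Ly6c2 and Csf1r no monocyte marker exceeded 4.95 CPM in any library. Among markers of macrophages, B lineage, T and NK cells, eosinophils and basophils, and erythroid cells, 0 were called higher. Nkg7, of the T and NK list, was the 1 called lower (log2 fold change -4.65). B lineage markers summed to 480 to 965 CPM in depolarized and 447 to 533 CPM in polarized libraries. Eosinophil and basophil markers summed to 50.6 to 180 CPM in depolarized and 38.7 to 448 CPM in polarized libraries. The immunoglobulin gene Igha, in none of the lists, was called lower (log2 fold change -4.31, edgeR adjusted p 0.00248). No marker found in the files was at 0 in all libraries. The part of precursor and mature cells in the values of Birc3, Tnip1 and Nfkbie, and in those of the target and immediate early genes, was not tested.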

How the data were processed

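Each of 6 libraries has a table of 41388 genes, of which 40254 received a symbol from the gene name table. Counts were used as deposited, unnormalized. The authors' CPM column equals counts per library total times a constant, and their RPKM column equals CPM per kilobase of listed gene length. Per the submitters' processing notes, bcl2fastq, STAR 2.0.4b, Subread and featureCounts 1.45 were used with GRCm38; the sources used here state neither strand setting nor multimapping nor annotation release. Of the 10 genes, 1 shares exon bases with another gene in the files (Nfkb2, 4 bases with Psd on the opposite strand).

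Counts were tested in R 4.3.3 with edgeR 4.0.16 (filterByExpr, 9971 genes, TMM, quasi-likelihood F test, replicate code as a block, 2 residual degrees of freedom, Benjamini-Hochberg over all tested genes). Standard errors were derived from F and the log2 fold change, and 95% intervals use the t quantile at the fit's total degrees of freedom. Differences in CPM within pairs are on log2(CPM + 1), and TMM-scaled ones on log2 CPM (prior count 2). The procedure was also run on simulated counts, drawn independently for each gene and with an assumed pair effect. Those counts held no difference in cell composition, so the run cannot show that calls or intervals in these data are right. Pairing comes from the design text; across genes, deviations from group means correlated at 0.08 in pair A, 0.27 in pair B and 0.03 in pair C, while the highest correlation with a library of another pair was 0.135 for A and for C and -0.04 for B, so the values of pairs A and C do not favour the stated pairing. Replicates of a population differed beyond sampling noise (chi-square over degrees of freedom at least 32.1). A run label in the titles sets 1 library apart, the depolarized one of pair B, and could not be entered as a batch.

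The 10 genes, the pathway and marker lists and the rule for named genes were chosen with earlier results of these data known. The rule took all 10 genes, 16 fixed pathway genes, the 3 genes of lowest p in each list without a call, and the 3 nearest profiles to Nfkbia and to the mean of the 10. Alternatives were the fit with no block, DESeq2 1.42.0, limma 3.58.1 (voom), robust edgeR, other scalings and filters, removal of the gene length trend, and each pair or library left out; the scaled comparison of overlap was added after seeing the data.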

Additional observations from a re-analysis of the deposited data

How the results depend on the processing

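With every library kept, 0 of the 10 genes were called under each of 9 alternatives, and 8 of 10 were fitted above 0 except without the replicate block, which gave 7 and put Tnfaip3 at -0.00163. Unadjusted p under 0.05 occurred in 1 member with library totals only and in 1 with the length trend removed. Alkbh4 turned to 0.0534 with library totals only, which put the median of all genes at 0.06. Without the low-count filter 1 target gene (Csf1) and 1 immediate early gene (Atf3) were called higher. Over all genes, the 8 called higher became 0 without the replicate block, 16 with DESeq2, 0 with library totals only, 50 with no low-count filter and 0 with the length trend removed. The 24 called lower became 0 without the replicate block, 6 with library totals only, 96 with no low-count filter, 10 with the stricter filter and 8 with the length trend removed; the cause was not tested. Leaving out a pair or a single library gave 0 to 500 for all genes called, higher, and 0 to 518 for all genes called, lower, both highest without pair C. Fits without a pair have 1 residual degree of freedom. Leave-out fits called 0 to 1 members higher (Birc3), 0 to 1 adaptors higher and 0 to 1 lower, 0 to 2 negative regulators, 0 to 5 target genes and 0 to 1 immediate early genes higher, with the upper counts all reached without pair C. Where a direction turned, the leave-out log2 fold changes were Nfkb1 -0.18 to 0.26, Nfkb2 -0.0322 to 0.64, Relb -0.37 to 0.57, Nfkbia -0.20 to 0.22, Nfkbiz -0.33 to 0.20, Tnfaip3 -0.22 to 0.41, Rel -0.0931 to 0.37, Bcl3 -0.12 to 0.35. Those of further genes were Ikbkb -0.075 to 0.14, Chuk -0.25 to 0.23, Zfp36 -0.0519 to 0.20, Tnf -0.12 to 0.27, Cxcl2 -0.10 to 0.15, Junb -0.0785 to 0.58, Nfkbil1 -0.27 to 0.92, Rnf31 -0.045 to 0.40. Those of further genes were Alkbh4 -0.23 to 0.17, Tnfrsf1a -0.0325 to 0.31, Card9 -0.0651 to 0.27, Apobr -0.0579 to 0.18, Snx3 -0.0831 to 0.17, Sel1l -0.0951 to 0.16. Fits that leave out a single library have no block. Nfkb2, Relb and Tnfaip3 had 36 to 220 counts per library and the widest intervals of the members, and the part of depth in that width was not tested.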
